A study of Mus musculus with 6 samples.

Results

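Tmem176a and Tmem176b are a pair of neighbouring mouse genes, and both were read from the table of raw counts by their symbols: 2 genes of 15528 listed, both among the 11208 with enough counts to be tested. They were chosen by their counts in this series, both being higher after exposure to red blood cells, with the question whether they rose in the same ratio. The values of that comparison are therefore given as a description, and nothing is read from a test of them. The study sequenced polyadenylated RNA of mouse cells in culture, called lymphatic endothelial cells (the lining of lymphatic vessels) in the labels, with 3 control libraries and 3 libraries of cells given red blood cells, all collected at 24 h. Its title concerns subarachnoid bleeding and the exchange between the brain and the lymph nodes of the neck. The labels name no strain, age, sex or passage, no dose or source of the red blood cells, and do not say that replicates came from separate cultures, so p-values reflect only how these libraries vary, which may be technical variation.

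Both genes encode small membrane proteins that span the membrane several times and are related to the MS4A family, to which the B cell antigen CD20 belongs. They are best known from dendritic cells, macrophages and some lymphoid cells, where the proteins sit in membranes of the endosomal and lysosomal system. Tmem176b is described as a cation channel that holds back the maturation of dendritic cells and the activity of the inflammasome, the complex that activates caspase 1.

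The genes lie head to head, so that their starts face each other and transcription runs away from a shared stretch of DNA. In RefSeq on GRCm38.p6, an older build than the GRCm39 named in the submitters' processing notes, Tmem176a is on the plus strand and Tmem176b on the minus strand of chromosome 6. The annotation gives 2 starts for Tmem176a and 3 for Tmem176b, and the nearest facing starts are 109 bases apart. The stretch between those starts, chr6:48841375-48841482 on the strand of Tmem176a, is shown because it lies upstream of both of these starts. Its capitals mark a match to an NF-kB motif. NF-kB is the transcription factor that many inflammatory signals switch on.
Tmem176b-Tmem176a: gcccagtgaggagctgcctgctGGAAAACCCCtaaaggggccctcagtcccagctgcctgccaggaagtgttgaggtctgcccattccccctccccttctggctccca
The match reads GGGGTTTTCC on the strand of Tmem176b. Its nearest base lies 23 bases upstream of that start, and on the other side 77 bases upstream of the Tmem176a start. The stretch is 108 bases long, with 63.9% G and C and 0 CpG. The motif was searched on both strands as GGG and TTTCC with 2 free bases between them, in windows from 250 bases before to 50 after each start. It was found in 2 of the 5 windows of the pair, which overlap and hold the same site, and in 1.63% of 32851 such windows of all genes. Another 7 motifs were not found in the 5 windows: the AP-1 site (TGANTCA), the STAT site (TTCNNNGAA), an interferon response core (TTTC repeated after 2 free bases), the TATA box (TATAAA), the CAAT box (CCAAT), the GC box (GGGCGG) and a form of the ETS site (CCGGAA). These are held by 3.44% (the interferon response core) to 37.4% (the CAAT box) of all windows. Other forms of the ETS site were not searched, and the stretch shown holds GGAA after other bases. A match or its absence describes these letters only.

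Because the genes face each other, some annotated exons overlap on opposite strands. In GENCODE M21, also on GRCm38, 81 exonic bases are common to both, 2.13% of the exonic bases of Tmem176a and 3.42% of those of Tmem176b. The library kit keeps strand, but whether the counting used it is not given in the sources used here, so reads from those bases may have gone to either gene. The transcripts of the pair share 0 stretches of 30 bases on the same strand, so exact reads of that length would not be split between them as between near-identical copies.

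Total counts ran from 17263359 to 18381419 per library. Control replicate 2 differed from the others in its trend with gene length: at the length of Tmem176a its counts lay 0.215 (log2) above the mean of the 6 libraries along the trend with length, against -0.055 to -0.031 in the other 5. Of 12 markers of lymphatic endothelium 8 were listed. Nr2f2 and Nrp2 were abundant, at 161 ± 1.38 and 272 ± 52.5 CPM in the controls (CPM being counts relative to all listed counts of a library; SD, n = 3). Prox1 and Lyve1 were not among the symbols listed, Pdpn had 6 counts over the 3 controls and Itga9 had 0. Of 10 pan-endothelial markers 7 were listed, with Eng at 99.3 ± 8.19 CPM and Kdr at 0 counts in the controls. Of the lymphatic list Stab1, a scavenger receptor, was called higher (30.9 ± 5.86 and 63.5 ± 0.504 CPM, edgeR adjusted p = 0.0029). The summed level of the list was 400 to 503 CPM in the controls and 562 to 594 CPM with red blood cells, most of it Nrp2 and Nr2f2. With red blood cells Nrp2 had 361 ± 16.1 CPM and Nr2f2 146 ± 3.46 CPM, both without a call. Some markers of other cell types had high levels in the controls: the keratins Krt8 and Krt18 had 448 ± 34.3 and 44.8 ± 7.32 CPM, the mesothelial marker Msln 187 ± 1.96 CPM and the collagen gene Col1a2 464 ± 25.8 CPM. Krt14 had 14.4 ± 0.873 and Pdgfra 8.23 ± 1.35 CPM. Others of these lists were low over the controls, with 6 counts for Col1a1, 17 for Col3a1, 3 for Dcn and 35 for Cdh1. Krt5 and Wt1 had 0 counts there, and Epcam and Upk3b were not listed. The epithelial and mesothelial list (7 of 9 listed, 0 of 4 tested called) summed to 658 to 738 CPM in the controls and 614 to 636 CPM with red blood cells. The fibroblast and mural list (8 of 9 listed, 0 of 2 tested called) summed to 442 to 492 and 451 to 469 CPM, nearly all of it Col1a2. The name of the cell type therefore rests on the label, and the part of other cell types in the results was not tested.

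Tmem176a had 26.3, 31.0 and 29.6 FPKM (deposited levels scaled to gene length and library total) in control replicates 1 to 3. It had 47.0, 49.8 and 47.4 FPKM in the libraries with red blood cells. The 3 treated libraries lay above the 3 controls with no overlap, and the controls spread more widely than the treated libraries. The mean level was 29.0 ± 2.39 FPKM in the controls and 48.1 ± 1.5 FPKM with red blood cells (SD, n = 3 each). The counts behind these levels were 509, 638 and 590 in the controls, against 947, 1021 and 955 in the treated libraries. In the fit over all genes with edgeR the log2 fold change was 0.73 ± 0.07 SE, which is 1.66-fold.

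Tmem176b had 37.0, 40.0 and 38.0 FPKM in the controls. In the treated libraries it had 73.3, 72.5 and 66.9 FPKM. Again the groups did not overlap, and treated replicate 3 was the lowest of its group. The means were 38.3 ± 1.55 and 70.9 ± 3.45 FPKM (SD, n = 3 each), from 897, 1034 and 953 counts in the controls and 1853, 1867 and 1694 counts with red blood cells. The log2 fold change was 0.89 ± 0.06 SE, which is 1.85-fold. In bulk RNA, more cells with a transcript and more transcript per cell cannot be told apart.

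**Figure D1:**
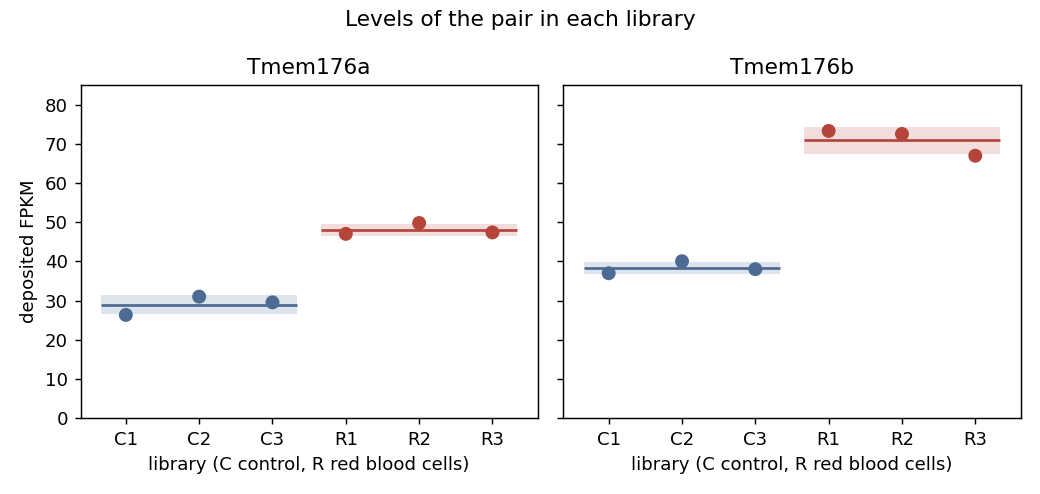
Deposited FPKM (vertical axis, from 0) of Tmem176a and Tmem176b in each of the 6 libraries; lines are group means and shading 1 SD over 3 libraries. For both genes the 3 treated libraries lie above the 3 controls, with Tmem176b at 66.9 to 73.3 against 37.0 to 40.0 FPKM.

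Both genes were already well above the typical level in the controls. Their FPKM exceeded those of 76.0% (Tmem176a) and 81.8% (Tmem176b) of the tested genes there, where the median gene had 10.5 FPKM. With red blood cells the shares were 85.9% and 91.1%. Per length Tmem176b was the higher of the pair in each of the 6 libraries.

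Of the pair, 2 of 2 genes were called higher at an adjusted p under 0.05 in edgeR's quasi-likelihood test, where 1.16% of all tested genes were called higher and 1.46% in either direction. All treated libraries exceeded all controls in CPM for 2 of 2 genes, and for 10.4% of all tested genes. Since this contrast chose the pair, nothing is read from those counts. By fold change Tmem176b was number 64 and Tmem176a number 75 of the 130 genes called higher, so their changes were of middle size among those genes. With each library left out in turn the log2 fold changes ran from 0.67 to 0.78 for Tmem176a and from 0.86 to 0.93 for Tmem176b. These fits reuse the libraries that chose the pair, so they only describe how far the values depend on single libraries. Control replicate 2 had the highest level of both genes among the controls. Without it the log2 fold changes were 0.78 and 0.92, and with an offset for each library's trend with gene length, added after that library was seen to stand apart, they were 0.81 and 0.95.

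Both genes rose, and Tmem176b had the slightly larger change. The ratio of Tmem176b to Tmem176a in FPKM was 1.40, 1.29 and 1.29 in control replicates 1 to 3. It was 1.56, 1.46 and 1.41 in the treated libraries. The treated ratios were all above the control ratios, but the lowest treated and the highest control library were almost level. The group means were 1.33 ± 0.0664 and 1.48 ± 0.0748 (SD, n = 3 each). On the log2 scale of counts the ratio was 0.74 ± 0.07 in the controls and 0.89 ± 0.07 with red blood cells, a difference of 0.15. That is a ratio 1.11 times as high with red blood cells. The gap between the nearest libraries of the 2 groups was 0.0094 (log2), whereas libraries of one group differed by up to 0.13 in the controls and 0.14 in the treated group.

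Counting error was not small beside that difference in single libraries. Tmem176b made up 63.8%, 61.8% and 61.8% of the summed counts of the pair in the controls. The exact (Clopper-Pearson) 95% intervals were 61.2% to 66.3%, 59.5% to 64.2% and 59.3% to 64.2%. With red blood cells its share was 66.2%, 64.6% and 63.9%, with intervals of 64.4% to 67.9%, 62.9% to 66.4% and 62.1% to 65.8%. In 7 of the 9 pairings of a treated with a control library the intervals overlapped. The exceptions were treated replicate 1 against control replicates 2 and 3. Pooled over each group the share was 62.4% (61.0% to 63.8%) in the controls and 64.9% (63.9% to 66.0%) with red blood cells, intervals that just failed to overlap. The reads carry no molecular identifiers, and the intervals therefore cover counting error alone. With a library left out the difference in log2 ratio ran from 0.11 (without treated replicate 1) to 0.19 (without control replicate 1).

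Within the controls the genes had the same extremes. Both were lowest in replicate 1 and highest in replicate 2. Their log2 CPM lay there -0.13 and 0.10 from the group mean for Tmem176a, and -0.05 and 0.06 for Tmem176b. Control replicate 2 is the library that stands apart in its trend with gene length. At the lengths of the pair that trend lay 0.215 (Tmem176a) and 0.182 (Tmem176b) above the mean of the 6 libraries. These values are larger than its deviations, so the shared order is not read as a trait of the pair. The part of the trend in it was not tested. Among the treated libraries their order differed, with Tmem176a highest in replicate 2 and Tmem176b in replicate 1. The SD over CPM was 8.24% of the mean in the controls and 3.13% in the treated group for Tmem176a, and 4.05% and 4.87% for Tmem176b. Counting alone would give between 3.13% and 4.43% for the counts of Tmem176a, and between 2.31% and 3.34% for those of Tmem176b.

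**Figure D2:**
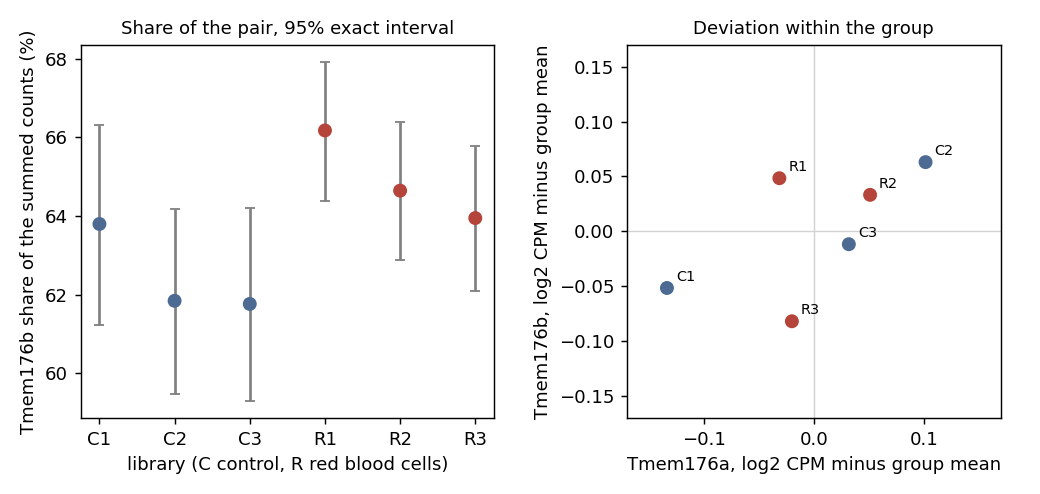
Left, share of Tmem176b in the summed counts of the pair (percent) per library with exact 95% intervals; the axis does not start at 0. Right, deviation of each library from its group mean (log2 CPM) for Tmem176a against Tmem176b. The treated shares (63.9% to 66.2%) lie above the control shares (61.8% to 63.8%) with overlapping intervals in 7 of 9 pairings. Control replicates 1 and 2 deviate in the same direction for both genes, replicate 2 being the library that stands apart in its trend with gene length.

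Head-to-head gene pairs are common in the mouse genome, which places the pair among others of its arrangement. In RefSeq, 599 pairs had facing starts at most 1000 bases apart and both genes tested. Calls were rare among them: 3 of their 1192 genes were called (0.252%), against 1.46% of all tested genes. These were Tmem176a, Tmem176b and Lnx2, a ubiquitin ligase chosen for mention after its value was seen. Lnx2 rose (log2 fold change 0.46 ± 0.07 SE), while Polr1d, the RNA polymerase subunit gene it faces, had -0.11 ± 0.13 without a call. The Tmem176 genes were the 1 pair in which both were called. They were chosen by this contrast, so nothing is read from those calls or from their place apart from the other pairs. The members' log2 fold changes in the edgeR fit differed by 0.16, more than in 406 of the 599 pairs, whose median difference was 0.11. Most of those pairs had little change in either gene, so a small difference there does not mean that the genes moved together.

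**Figure D3:**
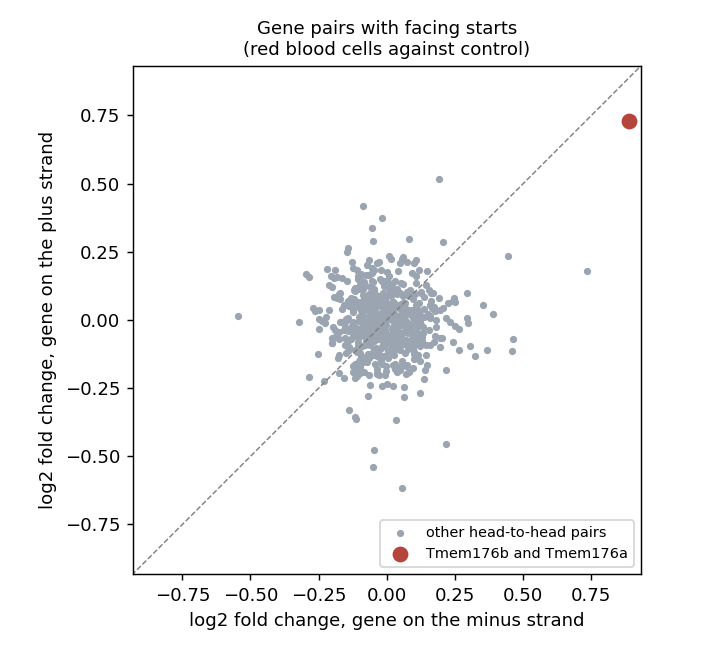
Log2 fold change with red blood cells of the gene on the plus strand (vertical) against that of the facing gene on the minus strand (horizontal) for 599 pairs with starts at most 1000 bases apart; the dashed line marks equal change. The Tmem176 pair, which was chosen by this contrast, stands at 0.89 and 0.73, apart from the cloud around 0, and just below the line.

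Few neighbours of the pair had enough counts to be tested, and none of those was called. Of the 10 protein-coding genes on each side in RefSeq, 14 are listed and 5 were tested. Of these 0 were called in edgeR, where 1.46% of all tested genes were called. At an unadjusted p under 0.05 in edgeR there were 0, against 1120 of all 11208 genes, and DESeq2 called 0. For so few genes this is near the share over all genes, and nothing is read from it. The median log2 fold change of the 5 was -0.08, against -0.0027 over all genes tested. The nearest on the side of Tmem176b are Gimap3, Gimap5 and Gimap1, GTPase genes known from lymphocytes. They had 0 counts over the controls, and the treated libraries held 5, 3 and 1, where 3 counts over a group correspond to 0.0561 CPM. Gimap9, a further member of that cluster, had 3.32 ± 0.597 CPM in the controls and 2.93 ± 0.128 CPM with red blood cells. Gimap6 and Gimap4, too low to test, had 4 counts each over the controls, and 22 and 4 with red blood cells. Of the 14 listed neighbours 7 had more counts in the treated group. The nearest on the side of Tmem176a, Gm7932, Aoc1 and Doxl1, are not among the listed symbols. Beyond them Gpnmb, which encodes a glycoprotein of lysosomes and the cell surface, had 112 ± 3.13 and 107 ± 1.69 CPM. Tra2a, a splicing regulator, had 150 ± 13.0 and 143 ± 6.64 CPM, and Malsu1, a factor of mitochondrial ribosome assembly, had 24.5 ± 2.40 and 21.8 ± 1.20 CPM.

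The related MS4A genes were nearly silent. Of 18 MS4A genes 8 are listed, with 1 count in all over the controls and 72 over the treated libraries, and all 8 had more counts in the treated group. None was tested in edgeR because of these low counts. Ms4a6d, known from macrophages, had 0 and 23 counts. Ms4a1, which encodes CD20 and is also counted among the lymphocyte markers, had 0 and 20 counts. Those 2 were called higher in DESeq2, which keeps genes of few counts, and Ms4a6d alone in edgeR without a low-count filter. In the treated libraries the 8 genes summed to between 1.11 and 1.69 CPM, whereas Tmem176b alone had 99.6 ± 4.85 CPM.

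Genes of the functions in which Tmem176b is known were for the most part not called or too low to test. Of 16 genes of class II antigen presentation and dendritic cell maturation 15 are listed and 3 were tested. Of these 1 was called higher and 0 lower (median -0.0069). The call was Cd74, which encodes the class II invariant chain, with 0 counts in the controls and 67 with red blood cells (edgeR adjusted p = 0.0044). Ifi30, a thiol reductase of antigen processing, had 83.0 ± 5.20 and 82.6 ± 4.03 CPM, and H2-DMa, a peptide exchange chaperone, had 5.22 ± 0.956 and 4.55 ± 0.443 CPM. The class II chains H2-Aa, H2-Ab1 and H2-Eb1 had 1, 1 and 0 control counts, against 12, 15 and 13 in the treated libraries. Ctss, the protease that trims the invariant chain, had 1 and 31 counts; it was too low for the test with 6 libraries and was called higher in DESeq2, without a low-count filter, and without control replicate 1 or 2. Of the activation markers Cd80 and Cd86, each had 0 counts in the controls and 1 with red blood cells.

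Of 13 inflammasome genes 10 are listed and 6 were tested. Of these 0 were called in edgeR, against 1.46% of all tested genes, and the median log2 fold change was 0.07. At an unadjusted p under 0.05 in edgeR there were 2 of the 6, against 1120 of all 11208 genes. Casp4, the sensor of cytosolic lipopolysaccharide, had 1.55 ± 0.283 CPM in the controls and 2.98 ± 0.459 CPM with red blood cells (log2 fold change 0.94 ± 0.20 SE, edgeR adjusted p = 0.061). Gsdmd, the pore former of pyroptosis, had 18.3 ± 1.08 and 21.6 ± 0.781 CPM (0.24 ± 0.07 SE, edgeR adjusted p = 0.27). Without control replicate 2 and with the length offset both were called higher. Over all genes those settings called 899 of 11297 and 339 of 11208, against 164 of 11208 in the fit without either change. Casp4 was also called without a low-count filter, where 198 of 15528 genes were called. Casp1, the caspase that the complex activates, had 5.13 ± 0.621 and 4.46 ± 0.836 CPM, and the DNA sensor Aim2 9.84 ± 0.375 and 10.9 ± 0.249 CPM. The sensor Nlrp3 had 3 control counts and 7 counts with red blood cells. Il1b, a cytokine that caspase 1 processes, had 1 and 34 counts and was too low for the test with 6 libraries. It was called in DESeq2, without a low-count filter, and without control replicate 1 or 2 or treated replicate 1.

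Of 12 genes of the type 17 lymphocyte program 11 are listed and 4 were tested. Of these 0 were called in edgeR, against 1.46% of all tested genes. At an unadjusted p under 0.05 in edgeR there were 0, against 1120 of all 11208 genes, and the median was -0.05. The aryl hydrocarbon receptor Ahr had 81.2 ± 7.15 and 80.7 ± 1.31 CPM, Maf 23.8 ± 0.994 and 23.6 ± 1.3 CPM, and the interleukin 1 receptor Il1r1 18.3 ± 1.17 and 16.6 ± 0.636 CPM. The nuclear receptor Rora had 1.09 ± 0.113 and 1.01 ± 0.232 CPM. Irf4 had 0 and 25 counts and was called in DESeq2 only.

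**Figure D4:**
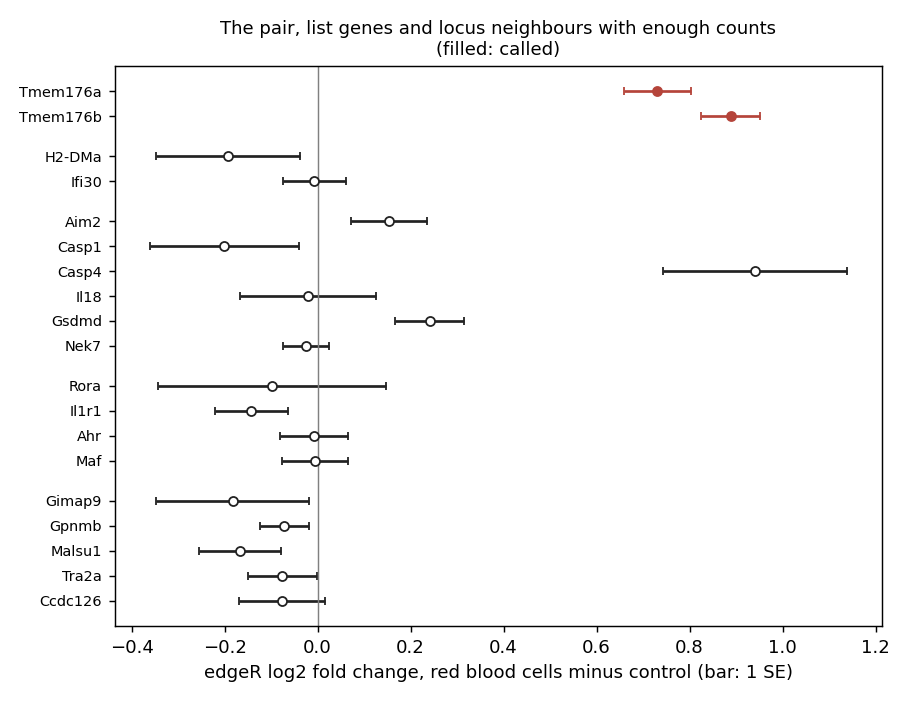
Log2 fold change with red blood cells (horizontal, bars 1 SE of the edgeR fit) of the pair in red and, in black, of the tested genes of class II presentation, the inflammasome, the type 17 program and the locus; filled points were called. Cd74, with 0 counts in the controls, is left out. The pair lies at 0.73 and 0.89, and of the genes in black Casp4 has a change of similar size (0.94), without a call.

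RNA of some blood cell markers was also higher in the treated libraries, most of all that of erythroid markers. The sums for monocytes and macrophages, for dendritic cells and for platelets overlapped between the groups. Over the erythroid markers (9 of 10 listed, 5 of 5 tested called higher) the summed level was 3.24 to 3.87 CPM in the controls and 538 to 623 CPM with red blood cells. Over the markers of lymphocytes and all leukocytes (7 of 11 listed) it was 0.0544 to 0.232 CPM and 1.39 to 2.05 CPM. The pan-leukocyte antigen Ptprc, the 1 tested gene of that list, was called higher, with 0 and 36 counts. Over the markers of monocytes and macrophages (14 of 15 listed, 2 of 5 tested called higher) the sum was 49.3 to 54.7 CPM and 54.5 to 59.2 CPM. Most of it was Csf1r (25.0 ± 2.72 and 24.7 ± 1.53 CPM) and Cd68 (20.6 ± 1.39 and 21.2 ± 0.800 CPM). The calls were the macrophage antigen Adgre1, with 0 and 48 counts, and Lyz2, with 14 and 83. C1qa, C1qb and Ccr2 had 0 counts in the controls and at most 2 with red blood cells. Over the markers of dendritic cells (6 of 9 listed, 0 of 1 tested called) it was 9.56 to 10.3 CPM and 9.33 to 11.1 CPM, nearly all of it Zbtb46. Irf8 had 0 and 20 counts and was not tested, and Xcr1, Clec9a and Cd209a are not listed. Over the granulocyte markers (4 of 8 listed, none with enough counts) the sum was 0.405 to 0.490 CPM and 0.491 to 1.06 CPM, with S100a8 at 20 and 37 counts, and over the platelet markers (4 of 5 listed, 0 of 2 tested called) 1.51 to 2.07 CPM and 1.94 to 2.56 CPM. In the same libraries the mean CPM of Tmem176a was higher by 21.4 and that of Tmem176b by 45.7. The part of added blood cells in these differences was not tested.

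**Figure D5:**
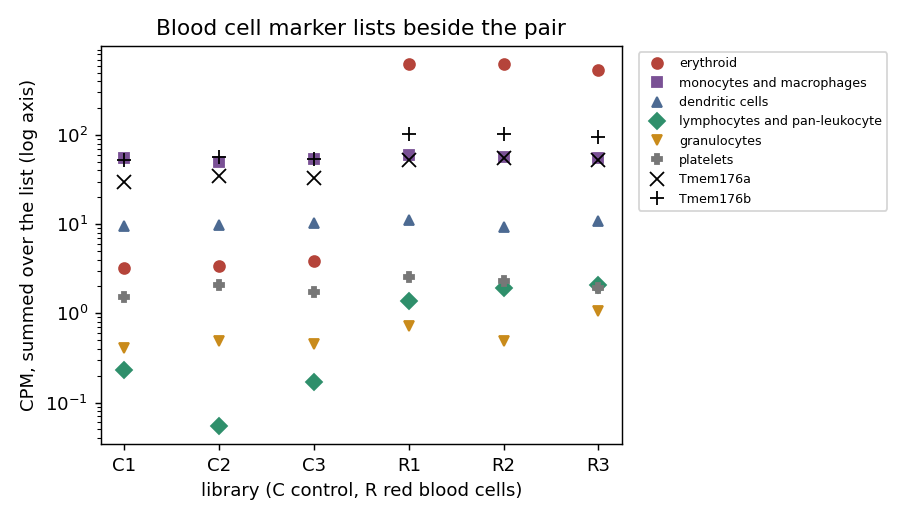
Summed CPM (log axis) of 6 blood cell marker lists in each library, beside the CPM of Tmem176a and Tmem176b. The erythroid sum goes from 3.24 to 3.87 CPM in the controls to 538 to 623 CPM and the lymphocyte and pan-leukocyte sum from at most 0.232 to at least 1.39 CPM, while Tmem176a and Tmem176b have means of 32.4 and 53.9 CPM in the controls.

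By the pattern over the 6 libraries the genes most like the mean of the pair included Cxcl5, Alas2, Il6, Enpp2 and Parp14, with Pearson's r of log2 CPM from 0.995 to 0.999. The 6 points form 2 groups and share libraries and depth, so this likeness mostly reflects the difference between the groups. The attractant Cxcl5 rose from 7.90 ± 1.14 to 26.2 ± 1.35 CPM (log2 fold change 1.73 ± 0.11 SE) and Enpp2, the enzyme autotaxin, from 0.912 ± 0.248 to 6.99 ± 0.391 CPM (2.92 ± 0.18 SE). Alas2, an erythroid enzyme of heme synthesis, rose from 0.167 ± 0.0509 to 31.8 ± 3.54 CPM. Parp14, a mono-ADP-ribosyltransferase, rose from 0.747 ± 0.0465 to 1.62 ± 0.0684 CPM (edgeR adjusted p = 0.032), a call that was lost in DESeq2, with the replicate block (adjusted p = 0.087) and with any library but control replicate 2 left out. Il6, an inflammatory cytokine, had 1.36 ± 0.0773 and 2.04 ± 0.0880 CPM without a call. The genes of the pair had an r of 0.988 to each other. Among the 11207 other tested genes Tmem176b was number 13 by likeness to Tmem176a, and Tmem176a was number 33 by likeness to Tmem176b.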

How the data were processed

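The authors deposited raw counts per gene symbol as whole numbers, and a second table of the same genes in FPKM, made from the same reads. GRCm39 is named in the submitters' processing notes; aligner, counter, strand setting and annotation: not given in the sources used here. The labels' protocols name TRIzol extraction and a stranded mRNA library kit. Groups came from the sample titles.

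Counts were fitted with edgeR 4.0.16 in R 4.3.3 (filterByExpr, minimum count 10 and total 15; TMM; quasi-likelihood test, two-sided, Benjamini-Hochberg over 11208 genes, called at adjusted p under 0.05). CPM use the total of listed counts. Gene length was counts over FPKM. Alternatives were RLE or library-size scaling, DESeq2 1.42.0, limma 3.58.1 voom, other filters, the replicate block, each library left out, and limma on log2(FPKM + 1) or log2(FPKM + 0.1). On simulated counts with 200 changed genes of 11192 tested, edgeR recovered 92% of those changed 1.5-fold and 95% of those changed 2-fold, with 5.08% false calls. The simulation gave all genes the same spread between replicates beyond counting error, and no library had a trend with gene length. In the data control replicate 2 stands apart, so these rates need not hold there.

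The pair, lists, motifs and tests were chosen with earlier results of these data known. Named genes are up to 4 tested genes per list by p, the 3 nearest neighbours per side, the 6 genes most like the pair and leading markers, of which some are not reported here; genes of few counts named beside them were chosen after their values were seen. Promoter sequences are RefSeq's on GRCm38.p6.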

Additional observations from a re-analysis of the deposited data

How the results depend on the processing

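The log2 fold changes of the pair kept their direction under all 17 alternatives. They ran from 0.67 to 0.81 for Tmem176a and from 0.86 to 0.95 for Tmem176b. Each moved by less than the larger of its group SDs in log2 CPM, 0.123 for Tmem176a (controls) and 0.073 for Tmem176b (treated). The largest moves exceeded the smaller group SDs of 0.044 and 0.060. The difference of 0.15 in log2 ratio was 0.11 to 0.19 with a library left out. The 164 genes called in edgeR were 62 to 899 with a library left out (899 when control replicate 2 was left out; 72, 62 and 79 for treated replicates 1, 2 and 3) and 339 with the length offset, which was chosen after seeing the data. Calls in the class II list, 1 in the fit with 6 libraries, were 2 in DESeq2 and 2 without a low-count filter, and 1 to 2 with a library left out (2 without control replicate 1 or 2). Calls in the inflammasome list, 0 with 6 libraries, were 1 in DESeq2, 2 without a low-count filter, 2 with the length offset and 0 to 3 with a library left out (3 without control replicate 2, 1 without control replicate 1 or treated replicate 1). In the MS4A list there were 2 in DESeq2 and 1 without a low-count filter, and in the type 17 list 1 in DESeq2. These extra calls in DESeq2 were of genes that the count filter of edgeR leaves out. So were the extra list calls without a low-count filter, except that of Casp4. With a library left out, the extra calls of Ctss and Il1b were of genes that the filter leaves out with 6 libraries. For the other changes the cause was not tested. Of 21 other named genes 17 kept their direction under all count-based alternatives. The sign of 4 uncalled genes with changes near 0 turned with a library left out: log2 fold changes ran from -0.080 to 0.032 for Ahr, from -0.042 to 0.035 for Maf, from -0.042 to 0.045 for Ifi30 and from -0.25 to 0.071 for Rora; Ifi30 also had 0.082 with the length offset. None of these was called in any of them. The call of Parp14 was lost with the replicate block, in DESeq2 and without any library but control replicate 2.

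Same-numbered libraries did not deviate together (correlations of deviations from the group means -0.014, 0.045 and 0.063), so the numbers are not taken as pairs. With the replicate block 126 genes were called, and the log2 fold changes were 0.73 for Tmem176a and 0.89 for Tmem176b; the mean of same-numbered differences in log2 ratio was 0.15. At 509 to 1867 counts per gene and library, a difference between the genes' changes as small as this in single libraries is near the limit that counting error sets.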
